A study of Homo sapiens with 8 samples.

Results

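The genes described here are 40 members of the amino acid response, the transcription programme that cells switch on when amino acids or charged transfer RNAs run short, taken by symbol from a fixed list out of 16726 genes measured. They comprise 18 cytosolic aminoacyl-tRNA synthetases, 12 enzymes of amino acid and one-carbon metabolism, and 10 stress regulators and their targets. All 40 symbols had a value in every library. The study asked how poly(A) RNA changes in acute myeloid leukaemia cells when METTL14, a subunit of the methyltransferase that places N6-methyladenosine on messenger RNA, is knocked down. There were 4 groups with 2 libraries each: MM6 cells (MonoMac 6) with the METTL14 hairpin shM14-#2, MM6 cells with the non-specific hairpin shNS, NB4 cells with shM14-#2, and NB4 cells with shNS. Both the knockdown and the control cells carried a lentiviral pLKO.1 construct and grew in 0.5 µg/mL puromycin, so all 8 libraries share transduction and drug selection. Each line was knocked down with 1 METTL14 hairpin, here called shM14, so that hairpin's own effects and those of METTL14 loss cannot be told apart. Acute monocytic leukemia is the label on either line, although NB4 is generally described as an acute promyelocytic leukaemia line.

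In the amino acid response, uncharged transfer RNA activates the kinase GCN2 (gene EIF2AK4), which phosphorylates the translation factor eIF2. Most protein synthesis then slows, while the messenger RNA of ATF4 is translated more, so ATF4 activity can change with no change in its RNA. ATF4 binds C/EBP-ATF composite elements with partner factors and raises genes for amino acid synthesis, uptake and tRNA charging, and related kinases feed other stresses into the same pathway. Leukaemia cells draw on this programme, and asparagine synthetase is well known in leukaemia because its level bears on the response to asparaginase.

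Libraries held 23272126 to 28814911 reads over the listed genes, and 34 of the 40 members had at least 500 reads in every library. The other 6, with fewer reads in at least 1 library, were ALDH1L2, CTH, CBS, CHAC1, NUPR1 and STC2, and their values are less precise. METTL14 stood at 6.54 and 6.55 RPKM (reads scaled to gene length and library depth) in MM6 shM14 libraries, against 12.5 and 13.4 RPKM in MM6 shNS libraries. In NB4 it stood at 8.35 and 8.35 RPKM in shM14 libraries, against 14.1 and 12.5 RPKM in shNS libraries. The groups did not overlap in either line; the log2 change was -0.88 ± 0.13 (SE) in MM6 with limma's adjusted p of 0.0877, which missed the threshold of 0.05, and -0.61 ± 0.07 in NB4 with an adjusted p of 0.00241. The MM6 change passed with all 8 libraries in 1 model (adjusted p 0.00325) and in the authors' deposited table (adjusted p 0.00489). Of the promyelocyte markers, MPO was at 2117 RPKM or more in all NB4 libraries. ELANE split by replicate number there. It was close to 0 in both NB4 replicate 1 libraries, with 0.0387 RPKM under shM14 and 0.0462 RPKM under shNS. In NB4 replicate 2 it was at 6.45 RPKM under shM14 and 6.83 RPKM under shNS. Of the monocyte markers, LYZ was at 5836 RPKM or more in all MM6 libraries. Summed over 5 monocyte markers, RPKM was 8243 to 14429.9 in MM6 shM14 and 5894 to 9291 in MM6 shNS libraries, and 115 in each NB4 shM14 library against 41.2 and 42.9 in NB4 shNS libraries. The MM6 groups overlapped, and CD68 had a change of -0.27 there, unlike the 4 other monocyte markers. With limma 4 of the 4 monocyte markers tested rose in NB4, and 0 of 5 passed in MM6 (adjusted p of 0.0955 or more). Summed over 5 promyelocyte markers, RPKM was 4636 and 5021 in MM6 shM14 and 4368 and 4551 in MM6 shNS libraries, and 2318 and 2361 in NB4 shM14 against 2567 and 2666 in NB4 shNS libraries, where 1 rose and 3 fell. In MM6 2 of the 5 promyelocyte markers had a positive change (ELANE and PRTN3) and 3 a negative one (MPO, AZU1 and CTSG), and none passed with limma. The part of these markers in the changes below was not tested. Of markers of other cells, EPCAM was at 9.27 to 10.2 RPKM in NB4, and COL1A1 was at most 0.652 RPKM in all libraries. In RNA from whole cultures, fewer cells of a type and less RNA per cell cannot be told apart.

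The composite element that ATF4 binds was read in the promoters of the set. The members came from a fixed list of genes of this response, which ATF4 drives through this element. Their share with the element is therefore a description and no independent support. The core TGATGNAA was searched on both strands in RefSeq windows of 250 bases before and 50 bases after each gene's start (GRCh38.p14). It was present in 9 of 30 members that have a window there (30%) and in 383 of 12714 genes of the files that have one (3.01%). Among members it was carried by 7 of 14 synthetases, 1 of 7 enzymes and 1 of 9 stress genes. The windows below read 5′ to 3′ on the gene's own strand, with the core in capitals, either as TGATGNAA or as its reverse complement.
AARS (chr16:70289676-70289703, minus strand, 187 bases before the start): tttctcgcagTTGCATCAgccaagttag
CARS (chr11:3057408-3057435, minus strand, 2 bases before): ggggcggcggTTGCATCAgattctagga
GARS (chr7:30594835-30594862, plus strand, 33 bases before): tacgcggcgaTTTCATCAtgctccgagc
IARS (chr9:92293693-92293720, minus strand, 13 bases before): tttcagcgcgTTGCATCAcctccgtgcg
MARS (chr12:57488054-57488081, plus strand, 4 bases before): ccggttccggTTGCATCAgcgagggatt
NARS (chr18:57621805-57621832, minus strand, 15 bases after the start): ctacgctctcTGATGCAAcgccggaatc
TARS (chr5:33440957-33440984, plus strand, 3 bases after): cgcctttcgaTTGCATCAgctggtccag
ASNS (chr7:97872459-97872486, minus strand, 68 bases before): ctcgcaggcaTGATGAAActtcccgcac
CHAC1 (chr15:40953252-40953279, plus strand, 209 bases before): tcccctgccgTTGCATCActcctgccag
In 7 of the 9 the core was written TTGCATCA or its complement TGATGCAA, with GARS and ASNS the exceptions. A match of these letters is a description of the window and says nothing of binding.

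In NB4 cells the 40 genes did not move as a block: 13 rose with the METTL14 hairpin, 8 fell and 17 did not pass, of 38 tested. CHAC1 and NUPR1 were below the minimum of 1 RPKM in 2 libraries and were not tested. The test was limma on log2(RPKM + 1), with adjusted p under 0.05 over all 11531 genes tested. Across all of those genes 22.1% were called higher and 25.2% lower, so NB4 shM14 libraries differed from their controls very widely, and the members' counts are to be read against that. The median log2 change was 0.09 over the members and -0.01 over all genes tested. Without each library in turn, 7 higher and 3 lower members kept their calls, namely GARS, MARS, WARS, PSAT1, MTHFD2, ATF5 and DDIT4, and DARS, LARS and ALDH1L2. With all 8 libraries in 1 model, whose spread takes in MM6, GARS, WARS and PSAT1 lost theirs as well (adjusted p 0.0849, 0.122 and 0.146). The counts then fell to 4 and 3. The others were lost without at least 1 library, and the counts were lowest without shM14 replicate 1 (7 and 3) and shM14 replicate 2 (8 and 3). Only 4 members changed by more than 0.5 on the log2 scale, namely DDIT4 and MARS upward and LARS and ALDH1L2 downward. The labels do not say that the libraries of a group came from separate cultures, so all p-values measure the spread between these libraries, which may be technical.

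**Figure D1:**
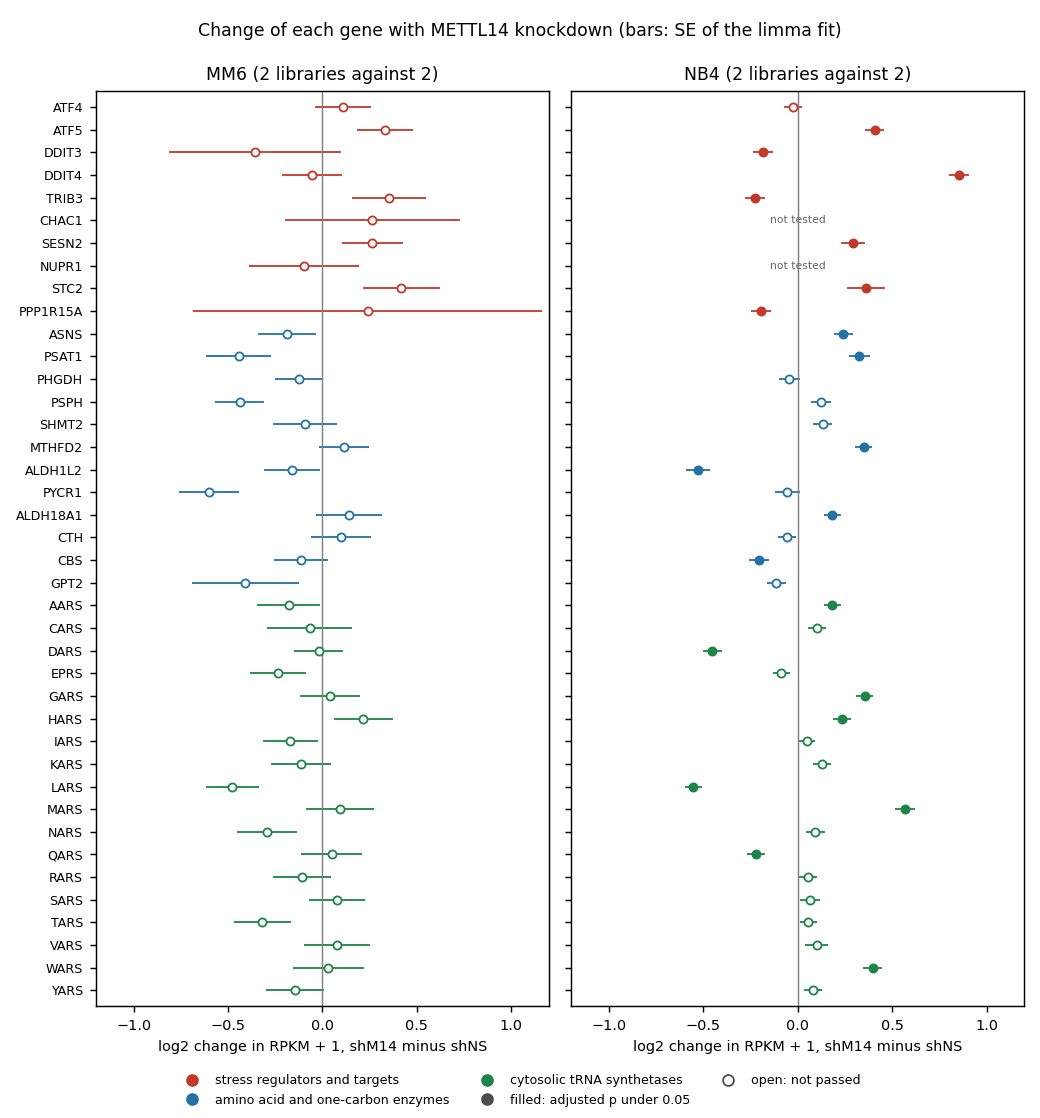
Log2 change in RPKM + 1, shM14 minus shNS, of the 40 genes in MM6 (left) and of the 38 tested in NB4 (right), coloured by role, with bars for the standard error of the limma fit. Filled points passed an adjusted p of 0.05 (21 in NB4, 0 in MM6), and the bars are wider in MM6, with a median standard error of 0.16 against 0.05 in NB4.

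Among the regulators, the RNA of ATF4, the central transcription factor of the response, did not pass the test in NB4. ATF4 stood at 204 and 210.4 RPKM in shM14 libraries, against 209 and 212 RPKM in shNS libraries. The groups overlapped, and the log2 change was -0.03 ± 0.05 (adjusted p 0.679). ATF5, a related bZIP factor under the same kind of translational control, had 13.4 and 12.7 RPKM in shM14 libraries, against 9.59 and 9.60 RPKM in shNS libraries. Both knockdown libraries lay above both controls, and ATF5 rose by 0.41 ± 0.05 (adjusted p 0.00309). DDIT3, which encodes the pro-apoptotic factor CHOP, had 8.67 and 8.68 RPKM in shM14 libraries, against 10.4 and 9.60 RPKM in shNS libraries. It fell by 0.18 ± 0.05, close to the threshold (adjusted p 0.0428), and the call was lost with a pseudocount of 0.1 (adjusted p 0.0532), with no minimum level (0.0576), with all 8 libraries in 1 model (0.833), without either shM14 library (0.159 and 0.167) and without shNS replicate 1 (0.0981).

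DDIT4 showed the largest change of the 38 members tested in NB4. This gene encodes REDD1, an inhibitor of the growth kinase mTORC1, and is induced by many stresses. DDIT4 had 135 and 131 RPKM in shM14 libraries, against 71.0 and 75.5 RPKM in shNS libraries. The groups were far apart for the spread within them, and the log2 change was 0.85 ± 0.05 (adjusted p 0.000638). SESN2, a leucine sensor that also restrains mTORC1, rose by 0.29 ± 0.06 (adjusted p 0.0174). STC2, a secreted glycoprotein induced by stress, rose by 0.36 ± 0.10 (adjusted p 0.0343) from a low level of 2.13 ± 0.00482 RPKM in shM14 libraries and 1.45 ± 0.34 RPKM in shNS libraries (SD, n = 2 each). The STC2 call was lost with a pseudocount of 0.1 (change 0.54, adjusted p 0.0537), with no minimum level (0.0596), with all 8 libraries in 1 model (0.237) and without either shM14 library (0.0808 and 0.0861).

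Both feedback inhibitors of the pathway in the set were lower in NB4. TRIB3, a pseudokinase induced by ATF4 and CHOP that dampens their activity, fell by 0.23 ± 0.05 (adjusted p 0.0214). PPP1R15A, the GADD34 subunit that directs dephosphorylation of eIF2, fell by 0.20 ± 0.05 (adjusted p 0.0314). Both calls were lost with all 8 libraries in 1 model (adjusted p 0.395 for TRIB3 and 0.925 for PPP1R15A). The spread in that model takes in MM6, where replicates of both genes were farther apart. Within NB4 alone, both calls were lost when either shM14 library was left out. In MM6 the changes were 0.35 ± 0.20 for TRIB3 and 0.24 ± 0.92 for PPP1R15A, and neither passed. Of the 8 stress genes tested in NB4, therefore, 4 rose, 3 fell and ATF4 alone did not pass. Over all genes tested in NB4, 22.1% were called higher and 25.2% lower. The untested CHAC1, which encodes a glutathione-degrading enzyme, stood at 1.07 and 0.971 RPKM in shM14 libraries, against 0.548 and 0.661 RPKM in shNS libraries, without overlap. CHAC1 passed once the minimum level was dropped, where DDIT3 and STC2 did not, and was higher in the authors' deposited table, with a log2 fold change of 0.77 and an adjusted p of 0.00173. NUPR1, a small stress-induced chromatin protein, stayed at 0.0673 RPKM or less in every NB4 library.

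Among the enzymes, 4 of 12 rose in NB4 and 2 fell, with a median log2 change of 0.04. These counts stand beside 22.1% of all genes tested called higher and 25.2% lower. MTHFD2, the mitochondrial folate dehydrogenase that is high in many cancers, had 251 RPKM in each shM14 library, against 198 and 195 RPKM in shNS libraries. It rose by 0.35 ± 0.04 (adjusted p 0.00366), the largest rise among the 12. PSAT1, the transaminase of the serine pathway, had 77.1 and 74.7 RPKM in shM14 libraries, against 62.4 and 58.2 RPKM in shNS libraries. It rose by 0.33 ± 0.06 (adjusted p 0.00841).
ASNS, which makes asparagine, had 56.9 and 56.0 RPKM in shM14 libraries, against 48.6 and 46.5 RPKM in shNS libraries. It rose by 0.24 ± 0.05 (adjusted p 0.0139), without overlap of the groups. ALDH18A1, which catalyses the entry step of proline synthesis from glutamate, rose by 0.18 ± 0.05 (adjusted p 0.0236).

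Of the other enzymes of serine and glycine synthesis, PHGDH, the entry enzyme, stood at 87.1 ± 0.890 RPKM in shM14 libraries and 90.0 ± 5.04 RPKM in shNS libraries (SD, n = 2 each; adjusted p 0.546). PSPH, the closing phosphatase, had 22.3 and 22.2 RPKM in shM14 libraries, against 19.7 and 21.1 RPKM in shNS libraries. Its groups did not overlap, but the change of 0.12 ± 0.05 did not pass (adjusted p 0.112). SHMT2, which turns serine into glycine in mitochondria, was at 0.13 ± 0.05 (adjusted p 0.079), and passed with voom (adjusted p 0.0056). In the authors' deposited table PSPH and SHMT2 were both higher in NB4, with adjusted p of 0.0303 and 0.000846.
ALDH1L2, the mitochondrial enzyme that oxidises formyl-folate, had 2.17 and 1.90 RPKM in shM14 libraries, against 3.42 and 3.32 RPKM in shNS libraries. It fell by 0.53 ± 0.06 (adjusted p 0.00282), opposite in direction to MTHFD2 of the same mitochondrial folate route. CBS, the entry enzyme of transsulfuration, fell by 0.20 ± 0.05 (adjusted p 0.0282) from a level under 3 RPKM. CTH, the next enzyme of that route, PYCR1, the proline reductase, and GPT2, a mitochondrial alanine transaminase, lay between -0.11 and -0.05 and did not pass.

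Of the 18 synthetases, which charge transfer RNAs with their amino acids, 5 rose in NB4, 3 fell and 10 did not pass. Their median log2 change was 0.09, and the counts stand beside 22.1% of all genes tested called higher and 25.2% lower. MARS, for methionine, had 124 RPKM in each shM14 library, against 80.4 and 86.2 RPKM in shNS libraries. It rose by 0.57 ± 0.05 (adjusted p 0.00166), the largest rise of a synthetase. WARS, for tryptophan, had 67.8 and 69.3 RPKM in shM14 libraries, against 53.1 and 50.7 RPKM in shNS libraries. It rose by 0.40 ± 0.05 (adjusted p 0.00345); WARS is also known as an interferon-induced gene.
GARS, for glycine, had 170.1 and 169.5 RPKM in shM14 libraries, against 133 and 132 RPKM in shNS libraries. It rose by 0.35 ± 0.04 (adjusted p 0.00341), with the replicates of each group nearly equal. HARS, for histidine, had 38.7 and 39.0 RPKM in shM14 libraries, against 32.1 and 33.7 RPKM in shNS libraries, and rose by 0.23 ± 0.05 (adjusted p 0.0154). AARS, for alanine, rose by 0.18 ± 0.05 (adjusted p 0.0282).

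The 3 synthetases that fell in NB4 were LARS, DARS and QARS, for leucine, aspartate and glutamine. LARS is also described as a leucine sensor for mTORC1, and all 3 proteins belong to the multi-synthetase complex. LARS had 63.4 and 64.3 RPKM in shM14 libraries, against 94.6 and 93.7 RPKM in shNS libraries. It fell by 0.55 ± 0.04 (adjusted p 0.00114). DARS had 70.6 and 71.2 RPKM in shM14 libraries, against 99.9 and 95.0 RPKM in shNS libraries, and fell by 0.45 ± 0.05 (adjusted p 0.0024). Both genes had non-overlapping groups, with knockdown libraries at clearly lower levels. QARS fell by 0.22 ± 0.05 (adjusted p 0.0186). MARS, which rose, is a member of the same complex, as are EPRS, IARS, KARS and RARS, which did not pass and lay between -0.09 and 0.13.
The remaining synthetases CARS, NARS, SARS, TARS, VARS and YARS lay between 0.06 and 0.10, and none passed with limma. In the authors' deposited table CARS, NARS, VARS and YARS were higher in NB4 (adjusted p 0.022, 0.0176, 0.0228 and 0.0321). KARS was higher there as well (adjusted p 0.00127), while SARS and TARS did not pass (0.139 and 0.092). With voom KARS and NARS were called higher (adjusted p 0.00787 and 0.0494) and EPRS lower (0.0495). The gene length implied by the recovered reads and the RPKM was 26622 bases for VARS, for valine, against 1062 to 7760 bases for the other members, so the level of VARS is not ranked among theirs. Of the other synthetases in the set, GARS had the highest mean RPKM in both NB4 groups.

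Set beside the NB4 changes, the composite core of the windows printed above was present in 4 of the 13 members that rose (AARS, GARS, MARS and ASNS), in 0 of the 5 members that fell and have a window, and in 5 of the 12 others. The 250 bases before the ASNS start (chr7:97872409-97872658, minus strand, GRCh38.p14), the best-studied promoter of this response, are shown with the core in capitals.
ASNS promoter: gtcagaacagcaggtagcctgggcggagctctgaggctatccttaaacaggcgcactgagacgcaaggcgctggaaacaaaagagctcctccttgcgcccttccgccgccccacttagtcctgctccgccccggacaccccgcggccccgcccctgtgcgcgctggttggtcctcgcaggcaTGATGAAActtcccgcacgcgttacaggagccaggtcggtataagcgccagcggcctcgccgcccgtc

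**Figure D2:**
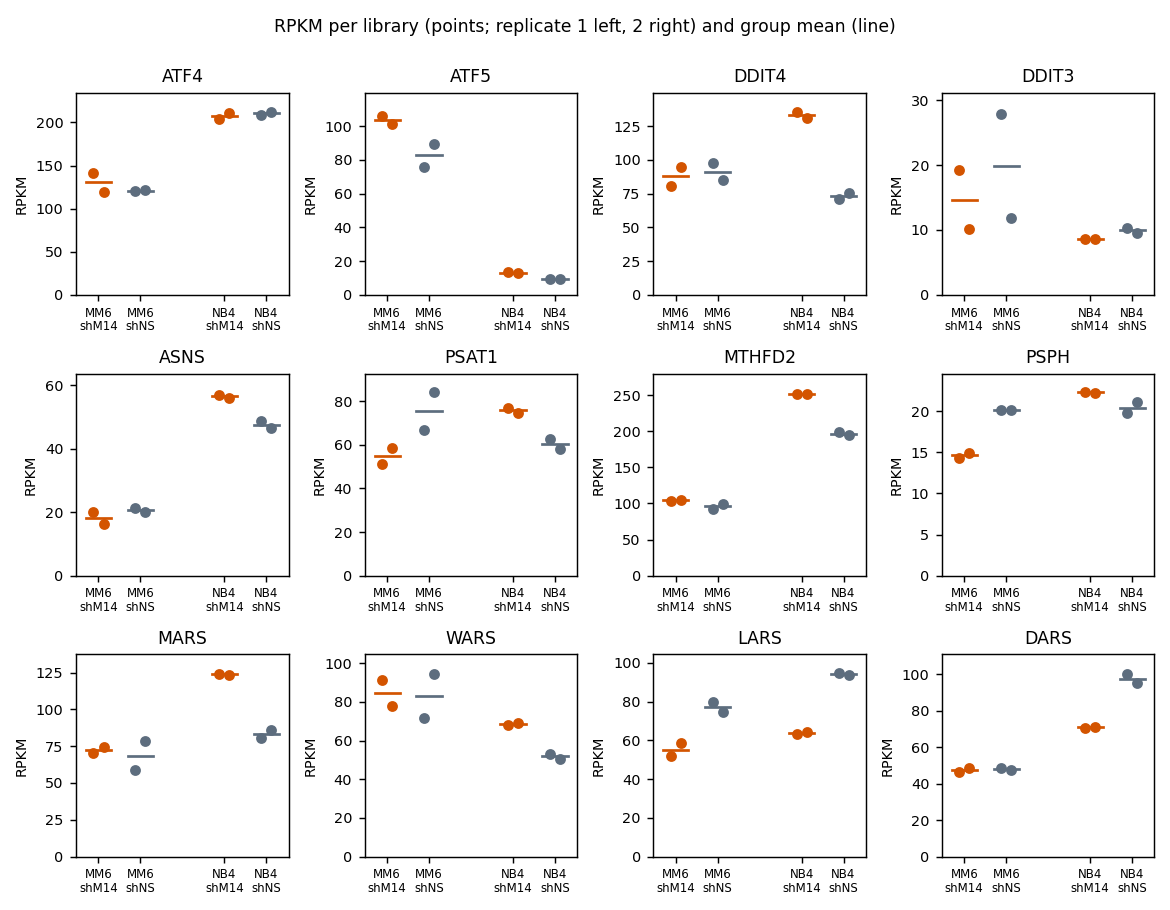
RPKM in each library (points, replicate 1 left and 2 right) and group mean (line) of 12 of the genes, in MM6 shM14, MM6 shNS, NB4 shM14 and NB4 shNS, each on its own linear axis from 0. DDIT4 is separated by knockdown in NB4 and mixed in MM6, LARS is lower under knockdown in both lines, and ATF5 is far higher in MM6 than in NB4.

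The authors' deposited table, whose test is not given in the sources used here, called more members in NB4 at an adjusted p under 0.05. It had 21 members higher and 6 lower, where 22.1% of its 16726 genes were higher and 21.5% lower. Its calls included all 13 members that rose here and 6 of the 8 that fell. The 2 exceptions were DDIT3 and CBS, with adjusted p of 0.0674 and 0.0551 in the authors' deposited table.

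In MM6 cells no member passed: 0 rose and 0 fell of 40 tested with limma. At an unadjusted p under 0.05 there were 0 higher and 4 lower of the 40, beside 717 higher and 1062 lower of all 11895 genes tested. Voom on reads recovered from the RPKM values also called 0 members. With all 8 libraries in 1 model, which share 1 estimate of the spread there, 3 were lower, namely LARS (adjusted p 0.0222), PSPH (0.0176) and PYCR1 (0.0257). With replicate number as a block, a pairing the labels do not give, PSAT1 (adjusted p 0.0477), PSPH (0.0452) and PYCR1 (0.0386) were lower. At an adjusted p under 0.05 with MM6 alone, the background was close to 0 as well, with 0.0504% of 11895 genes called higher and 0.0252% lower. The authors' deposited table called 0 members higher and 0 lower in MM6, against 1.58% and 1.69% of its genes. Replicates were wider apart in MM6, and the standard error of a member's log2 change had a median of 0.16 there and of 0.05 in NB4. A change of the size seen for most members in NB4 was therefore not detectable in MM6, and the missing calls do not show that the genes were steady.

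By the order of the 4 MM6 libraries alone, 6 members had both shM14 libraries above both shNS libraries and 9 had both below. Over all genes tested 19% and 25.8% did so, hence neither count is far from the background. The members above were ATF5, TRIB3, SESN2 and STC2 of the stress genes, with MTHFD2 and HARS. Those below were 5 enzymes (ASNS, PSAT1, PHGDH, PSPH and PYCR1) and 4 synthetases (EPRS, LARS, NARS and TARS). The median log2 change in MM6 was 0.25 over the 10 stress genes, -0.14 over the 12 enzymes and -0.09 over the 18 synthetases, beside -0.03 over all genes tested.
PYCR1, which makes proline, had the smallest adjusted p of the set in MM6. It stood at 27.6 and 34.1 RPKM in shM14 libraries, against 48.7 and 45.5 RPKM in shNS libraries, a log2 change of -0.60 ± 0.16 (adjusted p 0.189). LARS had 51.7 and 58.8 RPKM in MM6 shM14 libraries, against 79.6 and 74.7 RPKM in MM6 shNS libraries, a change of -0.48 ± 0.14 (adjusted p 0.224). ATF4 had 142 and 119 RPKM in MM6 shM14 libraries, against 120.0 and 121 RPKM in MM6 shNS libraries, and the groups overlapped (0.11 ± 0.15, adjusted p 0.814). ASNS had 19.9 and 16.2 RPKM in MM6 shM14 libraries, against 21.3 and 20.0 RPKM in MM6 shNS libraries (-0.19 ± 0.15, adjusted p 0.667).

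Taking both lines in a single model with cell line as a term, 1 member rose and 1 fell of 40 tested. The background was 4.8% of 12804 genes higher and 7.1% lower. LARS fell by 0.51 ± 0.07 (adjusted p 0.00537), with a change of -0.48 in MM6 and -0.55 in NB4. Its shM14 libraries were below the shNS libraries of the same line in both lines, and the call held without any single library. ATF5 rose by 0.37 ± 0.07 (adjusted p 0.0186). It had 106 and 102 RPKM in MM6 shM14 libraries, against 75.8 and 89.5 RPKM in MM6 shNS libraries, a change of 0.33 ± 0.15 in that line (adjusted p 0.379) beside 0.41 in NB4. The ATF5 call was lost without any of the 4 NB4 libraries (adjusted p 0.0643 to 0.0761), while its change kept its sign.
The MM6 change minus the NB4 change was 0.08 ± 0.13 for LARS (adjusted p 0.802) and -0.08 ± 0.14 for ATF5 (adjusted p 0.818), and neither passed.

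**Figure D3:**
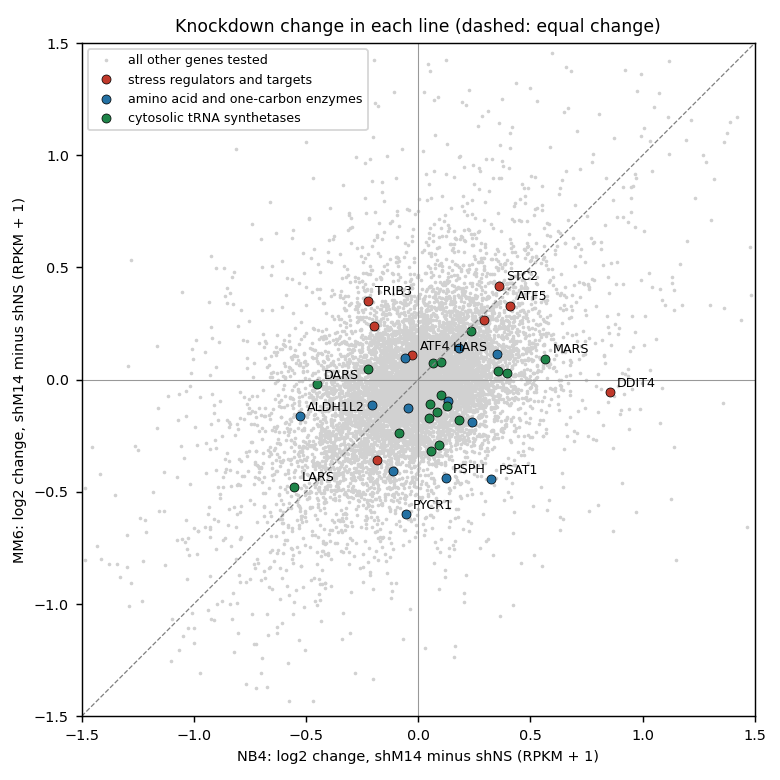
Log2 change in RPKM + 1, shM14 minus shNS, in MM6 (vertical axis) against NB4 (horizontal axis) for members tested in both lines, coloured by role, and all other genes tested in both lines (grey, those within the axes). LARS and ATF5 lie near the line of equal change, while DDIT4, PSAT1 and PSPH lie below it.

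The difference itself, the MM6 change minus the NB4 change, passed for 2 of 40 members, both lower in MM6, and for 0 members in the other direction. At an unadjusted p under 0.05 there were 8 lower and 3 higher of the 40, beside 1303 lower and 1208 higher of all 12804 genes tested. Voom called 1 member lower and 0 higher. At an adjusted p under 0.05, 1.53% of all genes tested had a change higher in MM6 and 1.39% a lower one. DDIT4 was at 80.6 and 94.9 RPKM in MM6 shM14 libraries, against 97.4 and 84.9 RPKM in MM6 shNS libraries. Its groups overlapped in MM6, where the change was -0.06 ± 0.16, against 0.85 ± 0.05 in NB4, a difference of -0.91 ± 0.16 (adjusted p 0.0363).
PSPH was at 14.3 and 14.9 RPKM in MM6 shM14 libraries, against 20.1 and 20.2 RPKM in MM6 shNS libraries. Its change was -0.44 ± 0.13 in MM6 and 0.12 ± 0.05 in NB4, a difference of -0.56 ± 0.11 (adjusted p 0.0468). The difference test shares 1 estimate of the spread across both lines, although replicates were closer together in NB4. For PSPH its standard error (0.11) was therefore below that of the MM6 change alone (0.13), and the precision may be overstated. PSAT1, upstream of PSPH in the serine pathway, had 51.3 and 58.6 RPKM in MM6 shM14 libraries, against 66.8 and 84.1 RPKM in MM6 shNS libraries. The knockdown libraries were the lower ones in MM6 and the higher ones in NB4, but the difference of -0.77 ± 0.18 did not pass (adjusted p 0.0765). The PSAT1 difference passed with median-of-ratios scaling (-0.74, adjusted p 0.0475) and with replicate number as a block (-0.77, adjusted p 0.021). Both calls sat near the threshold and were lost with a pseudocount of 0.1, without any 1 of the NB4 libraries and without MM6 shNS replicate 1 (adjusted p 0.0609 to 0.257). PSPH was lost as well with voom, without MM6 shM14 replicate 1 and without MM6 shNS replicate 2.
Of the 13 members that rose in NB4, 9 had a positive change in MM6, and of the 8 that fell, 5 had a negative one, where 17 of all 40 members were positive in MM6 and 23 negative. Up to 10 of the 40 signs in MM6 turned when 1 library was left out.

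Within MM6, 3 stress genes were far apart between replicates of a group. PPP1R15A had 102 and 21.7 RPKM in shM14 libraries, against 83.7 and 18.9 RPKM in shNS libraries, the first value of each pair being replicate 1. The replicates of a group thus differed 4.72-fold under shM14 and 4.42-fold under shNS, and the knockdown change was 0.24 ± 0.92 (adjusted p 0.949). DDIT3 had 19.2 and 10.2 RPKM in shM14 libraries, against 27.9 and 11.8 RPKM in shNS libraries, with replicate 1 again the higher.
CHAC1 went the other way, with 1.10 and 3.36 RPKM in shM14 libraries, against 0.767 and 2.60 RPKM in shNS libraries. Replicates differed by at least 1 on the log2(RPKM + 1) scale for 2 of 40 members in MM6 shM14, beside 2.07% of all genes tested, and for 3 of 40 in MM6 shNS, beside 1.76%. In NB4 0 of 38 members did so in either group. ATF3, an immediate stress factor that is no member of the set, had 21.9 and 0.549 RPKM in MM6 shM14 libraries, against 18.5 and 0.888 RPKM in MM6 shNS libraries. The labels give no reason for a split by replicate number, and its part in the MM6 results was not tested beyond the fit with replicate number as a term given with the other processing choices.

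**Figure D4:**
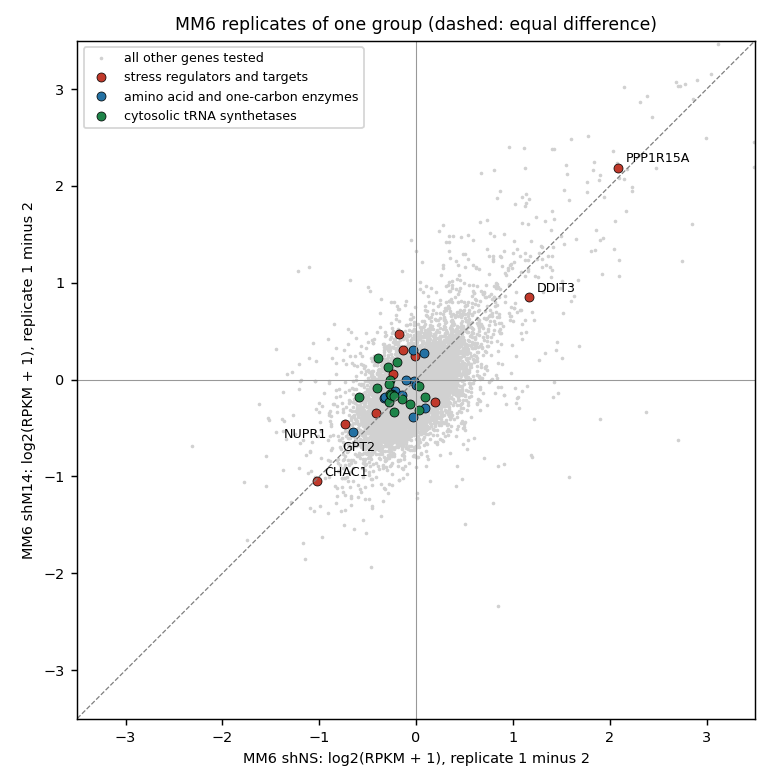
Difference between replicates 1 and 2 in log2(RPKM + 1) within MM6 shM14 (vertical axis) and within MM6 shNS (horizontal axis), for the 40 genes by role and all other genes tested (grey, those within the axes). PPP1R15A and DDIT3 were higher in replicate 1 of both groups and CHAC1 higher in replicate 2 of both, while most members lie near 0.

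The lines also differed in where these genes stood before any knockdown, which is given as a description with no test, since line and deposited table go together. Between shNS groups, MM6 over NB4, 5 members were at least 2-fold higher on the log2(RPKM + 1) scale and 7 at least 2-fold lower, beside 15.8% and 13.2% of 12804 genes. CBS averaged 58.1 ± 4.12 RPKM in MM6 shNS and 2.80 ± 0.163 RPKM in NB4 shNS (SD, n = 2 each), the widest gap of the set on the log2(RPKM + 1) scale, at 3.96. ATF5 averaged 82.7 ± 9.68 RPKM in MM6 shNS and 9.59 ± 0.00668 RPKM in NB4 shNS.
NUPR1 averaged 5.18 ± 2.18 RPKM in MM6 shNS and 0.0201 ± 0.0284 RPKM in NB4 shNS, where it was close to 0. PYCR1 and STC2 were the other members at least 2-fold higher in MM6, by 1.69 and 1.32 on the log2 scale. Lower in MM6 were GPT2 (-1.59), TRIB3 (-1.23), ASNS (-1.17), AARS (-1.07), SHMT2 (-1.05), MTHFD2 (-1.02) and DARS (-1.01). MTHFD2 averaged 96.3 ± 4.92 RPKM in MM6 shNS and 197 ± 2.23 RPKM in NB4 shNS, and ASNS averaged 20.6 ± 0.869 RPKM in MM6 shNS and 47.6 ± 1.5 RPKM in NB4 shNS. ATF4 averaged 121 ± 0.834 RPKM in MM6 shNS and 211 ± 2.48 RPKM in NB4 shNS, the highest member there. In MM6 shNS the highest was NARS at 131 ± 16.8 RPKM, which differed from ATF4 by less than its own spread. The synthetases lay closer together, between -1.07 for AARS and 0.80 for NARS.

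**Figure D5:**
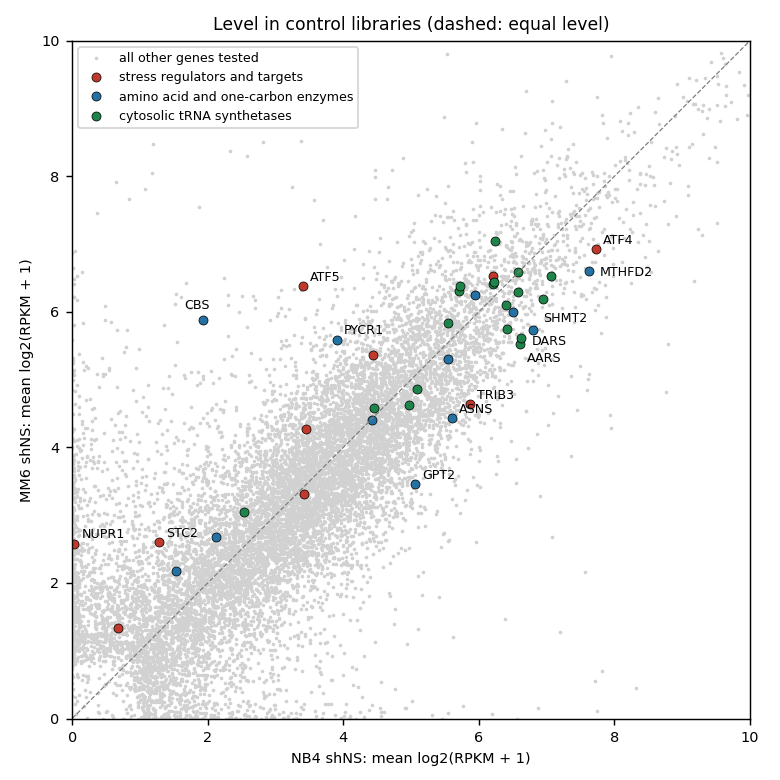
Mean log2(RPKM + 1) in MM6 shNS libraries (vertical axis) against NB4 shNS libraries (horizontal axis) for the 40 genes by role and all other genes tested (grey). CBS, ATF5 and NUPR1 stand above the line of equal level by 3.96, 2.98 and 2.55, while most synthetases lie within 1 of it.

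Other genes of the pathway were taken from 6 lists, and 0 of their genes passed in MM6 with limma. Their counts in NB4 stand against the same 22.1% of all genes tested called higher and 25.2% lower. Among amino acid transporters, 7 of 9 tested rose in NB4 and 1 fell, with a median log2 change of 0.30, beside 0.09 over the 40 members and -0.01 over all genes tested. SLC1A4 rose by 0.52 ± 0.05 (adjusted p 0.00166), SLC7A11, the cystine carrier, by 0.45 ± 0.06 (adjusted p 0.00326), SLC7A5, the large neutral amino acid carrier, by 0.36 ± 0.05 (adjusted p 0.00424) and SLC38A2 by 0.33 ± 0.05 (adjusted p 0.00616). In MM6 the transporters had a median change of 0.02.
Among 13 other partners and targets of ATF4, 6 rose in NB4 and 1 fell. XPOT, the exporter of transfer RNA, rose by 0.39 and GFPT1 by 0.25, while VLDLR, a lipoprotein receptor, fell by 0.36 in NB4 and by 0.36 in both lines together (adjusted p 0.0103). BBC3, the pro-apoptotic gene PUMA, rose by 0.35 in NB4 and by 0.42 in both lines together (adjusted p 0.0186).

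Upstream of ATF4, 1 of 15 genes for eIF2 kinases, eIF2, eIF2B and their regulators rose in NB4 and 3 fell. Beside 22.1% of all genes tested called higher and 25.2% lower, counts this small are not read as a departure. EIF2AK2, the kinase PKR, which senses double-stranded RNA, had 26.5 and 20.4 RPKM in MM6 shM14 libraries, against 29.9 and 37.9 RPKM in MM6 shNS libraries. In NB4 it had 44.7 and 45.4 RPKM in shM14 libraries, against 67.8 and 66.7 RPKM in shNS libraries. The shM14 libraries were the lower ones in both lines, and EIF2AK2 fell by 0.54 ± 0.10 in both lines together (adjusted p 0.0161). IMPACT, an inhibitor of GCN2 activation, fell by 0.39 ± 0.08 in both lines together (adjusted p 0.0199), and EIF2AK4, which encodes GCN2, fell by 0.20 ± 0.05 in NB4 (adjusted p 0.0339). EIF2S1, the eIF2 subunit that is phosphorylated, rose by 0.28 ± 0.05 in NB4 (adjusted p 0.00724).

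Of the 17 mitochondrial synthetases, 5 rose and 2 fell in NB4, beside 22.1% of all genes tested called higher and 25.2% lower. With so few genes, neither count is read as a departure from that background. IARS2, for isoleucine, had 30.9 and 47.5 RPKM in MM6 shM14 libraries, against 79.4 and 83.4 RPKM in MM6 shNS libraries. In NB4 it had 25.8 and 26.0 RPKM in shM14 libraries, against 45.2 and 48.4 RPKM in shNS libraries. It was far lower in all 4 knockdown libraries and fell by 0.95 ± 0.13 in both lines together (adjusted p 0.00567), more than any of the 40 members. In NB4 RARS2 rose by 0.51 while WARS2 fell by 0.25. Of 6 other synthetase subunits and scaffolds, AIMP1, a scaffold of the multi-synthetase complex, fell by 0.30 in both lines together (adjusted p 0.0411), TARSL2 fell by 0.29 in NB4 and EEF1E1 rose by 0.33 there.
Of 12 other one-carbon and folate enzymes tested, 3 rose and 5 fell in NB4. AMT, of the glycine cleavage system, fell by 0.64 and MTR, methionine synthase, by 0.55, while MTHFD2L rose by 0.25 and AHCY by 0.21.

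Exons of 14 of the 40 members overlap an exon on the opposite strand in GENCODE release 29, for 8 of them one of a protein-coding gene. Among these MARS and DDIT3 overlap each other by 62 bases, ATF5 overlaps NUP62 by 563 bases and DDIT4 overlaps its antisense transcript by 847 bases. The strand used in counting is not given in the sources used here, so reads of such pairs may not be told apart. PSPH and ATF4 are also known to have pseudogene copies that could share reads, which was not examined here.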

How the data were processed

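Poly(A) RNA of 8 cell line libraries was sequenced with a directional library kit (100 ng total RNA in, single-end 50 bp reads out), per the labels. The authors deposited, for each line, RPKM per gene and library, group means as a normalised signal (reads over a size factor), a fold ratio, its log2, and p-values; the sources used here do not name their aligner, counter, genome build or test. Group means and RPKM together gave whole reads for 100% of values within 0.01 reads. These set the depth. RPKM was tested as log2(RPKM + 1) in limma 3.58.1 (R 4.3.3), on genes with at least 1 RPKM in at least 2 libraries, each line alone, both together with cell line as a term, and as a difference of changes, with Benjamini-Hochberg adjusted p-values at 0.05 over all genes tested. Changes are on this scale, which understates those of low genes. Values after ± are standard errors of the fit unless marked SD.

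All members are accounted for by role, with library values for ATF4, ATF5, DDIT3, ASNS and up to 12 members per fit past the threshold, and other lists show up to 4 genes with the smallest p. ATF3, PHGDH, PYCR1 and other values beside these were added after values were seen. The members, lists and alternatives were chosen with earlier results of these data known. Of the markers of other cells, EPCAM and COL1A1 are given; some items of the lists are not reported here. Alternatives were another pseudocount, no minimum level, replicate number as a block, median-of-ratios scaling, voom on recovered reads, all 8 libraries in 1 model, and leaving out each library. The scripts were tested on simulated data.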

Additional observations from a re-analysis of the deposited data

Results flagged for a closer look

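The change with METTL14 knockdown differed between the lines for 2 of the 40 genes, by limma's test of the MM6 change minus the NB4 change over all 8 libraries, where 1.39% of all genes tested had a change lower in MM6. For DDIT4 the difference was -0.91 (adjusted p 0.0363), with a log2 change of -0.06 in MM6 and 0.85 in NB4. For PSPH it was -0.56 (adjusted p 0.0468), with -0.44 in MM6 and 0.12 in NB4. The test shares 1 estimate of the spread across both lines. Its standard error for PSPH (0.11) was below that of the MM6 change alone (0.13), so the precision may be overstated. In both genes the NB4 shM14 libraries were above their controls, while in MM6 the PSPH shM14 libraries were below theirs and those of DDIT4 overlapped them. Both calls were lost with a pseudocount of 0.1 and without any 1 of the NB4 libraries (adjusted p 0.0609 to 0.257), that of PSPH also with voom (0.0673) and without MM6 shM14 replicate 1 or either MM6 shNS library (0.0565 to 0.0801), and that of DDIT4 also without MM6 shNS replicate 1 (0.0742).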

How the results depend on the processing

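No called member changed its sign under any alternative run. Voom on recovered reads called more members in NB4, 16 higher and 10 lower, with EPRS, GPT2, KARS, NARS and SHMT2 added. In NB4, the 13 higher and 8 lower members became 4 and 3 with all 8 libraries in 1 model, and 7 to 12 and 3 to 7 when 1 library was left out; the lowest counts came without shM14 replicate 1 (7 and 3) and without shM14 replicate 2 (8 and 3), and 5 were lower without shNS replicate 2. In MM6, 3 members became lower with all libraries in 1 model (LARS, PSPH and PYCR1), and METTL14, at -0.88, then passed (adjusted p 0.00325). For both lines together, 4 members were higher with median-of-ratios scaling (HARS, MTHFD2 and STC2 added) and 2 with voom, and leaving out 1 library gave 0 to 2 higher and 1 to 2 lower. For the difference between the lines, the 2 lower members became 3 with median-of-ratios scaling (PSAT1 added), 0 with a pseudocount of 0.1, 1 with voom, and 0 to 3 when 1 library was left out, with 0 to 1 higher. The cause was not tested, although leaving out a library leaves 1 group with 1 sample, which is assumed to vary like the others.

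Libraries with the same replicate number deviated together in MM6 (correlation over genes 0.70) and hardly in NB4 (0.08). With 2 pairs in each line and no label on pairing, the deviation shared in MM6 does not establish a shared origin, and its cause was not tested. With replicate number as a block, NB4 had 13 higher and 7 lower (DDIT3 lost), MM6 had 0 and 3 (PSAT1, PSPH and PYCR1) and METTL14 passed there at -0.88 (adjusted p 0.00885), both lines had 3 and 1 (CHAC1 and STC2 added), and the difference had 0 and 3 (PSAT1 added).

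With 2 libraries a group, the standard error sets the precision, with a median of 0.16 over the members in MM6 and 0.05 in NB4. CTH, CHAC1 and NUPR1 had the fewest reads.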
